A study of Mus musculus with 45 samples.

Results

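The 5 Fc receptor genes Fcer1g, Fcgr1, Fcgr2b, Fcgr3 and Fcgrt were chosen by name, and all 5 were found among the 15897 genes measured in the hippocampus of 45 female C57Bl/6J mice. The mice were wild-type (AwTw), Tau P301L (AwT+), APPswe/PS1dE9 (A+Tw) or carried both transgene sets (A+T+), and from 7 to 13 months of age they ate a standard diet (STD, 5% fat and 0% cholesterol) or a typical Western diet (TWD, 21% fat and 0.15% cholesterol). The A+ line expresses a chimeric mouse/human APP with the Swedish mutation and a human presenilin lacking an exon. Both are expressed from the mouse prion protein promoter. The T+ line expresses a mutant human tau from the CaMKII promoter, so both lines are overexpression models. Every genotype had 6 mice on TWD, and STD was eaten by 6 mice each of AwTw and AwT+ but by 5 A+Tw and 4 A+T+ mice. All were perfused with saline, and each library came from 1 animal.

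Fc receptors bind the constant part of antibodies. Fcgr1 and Fcgr3 encode activating receptors for IgG that signal through the common gamma chain encoded by Fcer1g, whose cytoplasmic tyrosine motif (ITAM) recruits the kinase Syk. Fcgr2b encodes the inhibitory IgG receptor, which carries an inhibitory tyrosine motif (ITIM) in its own tail and recruits phosphatases. In the brain these receptors are known mainly from microglia, where they take part in the uptake of antibody-coated material. Fcgrt encodes the heavy chain of the neonatal Fc receptor, which pairs with beta-2 microglobulin and returns IgG and albumin from endosomes, and it is known from endothelium, choroid plexus and phagocytes.

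In GENCODE M21 (GRCm38) all 5 are protein-coding genes on the minus strand. Fcgr2b (chr1:170958617-170976547), Fcgr3 (chr1:171051174-171064935) and Fcer1g (chr1:171229572-171234365) lie in one stretch of chromosome 1, Fcgr1 at chr3:96282909-96293969 and Fcgrt at chr7:45092990-45103851. Fcgr2b and Fcgr3 have related sequences: of all 31-base words in the Fcgr3 transcripts 13.44% also occurred in Fcgr2b, and 233 words were common to both. Reads from that stretch can be assigned to either gene. No 31-base word of Fcer1g or Fcgr1 occurred in another gene, and for Fcgrt the share was 1.881%. For Fcgr2b the share in any other gene was 8.148%. Besides Fcgr3, it had 126 words in common with Gm38204 and 62 with Cplx2.

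The start regions of Fcgr1 and Fcgr3 were picked with the results known. Both activating receptors were higher in A+Tw/STD mice, though the Fcgr1 call was lost when any 1 of 9 of the 11 mice was left out. Both regions hold the letters GAGGAA, a core of the sites bound by PU.1, the myeloid transcription factor. The regions shown are the 250 bases before the RefSeq start (GRCm38.p6, 5′ to 3′ on the minus strand), chr3:96293970-96294219 and chr1:171059395-171059644. The capitals mark the match, which is read here from the opposite strand.
Fcgr1: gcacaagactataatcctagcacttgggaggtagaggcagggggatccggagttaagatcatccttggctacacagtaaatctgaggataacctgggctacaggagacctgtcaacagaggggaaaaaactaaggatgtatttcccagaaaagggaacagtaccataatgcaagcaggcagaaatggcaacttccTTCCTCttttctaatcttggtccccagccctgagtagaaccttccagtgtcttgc
Fcgr3: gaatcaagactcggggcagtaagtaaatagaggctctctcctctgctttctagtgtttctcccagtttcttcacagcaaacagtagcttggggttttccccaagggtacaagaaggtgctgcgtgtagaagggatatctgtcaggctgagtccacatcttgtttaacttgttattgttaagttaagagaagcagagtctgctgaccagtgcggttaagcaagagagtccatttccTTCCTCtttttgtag
The match began 55 bases before the start in Fcgr1 and 15 in Fcgr3, and in both it sat in the same run of 14 bases, ttccTTCCTCtttt. The Fcgr3 window lies inside that gene and overlaps 27 exon bases of another of its transcripts. For a second RefSeq start of Fcgr3, with the window chr1:171059404-171059653, the match began 6 bases before the start. GAGGAA was found on either strand in 23.25% of 32851 promoters of this length. It was not found in the windows of Fcer1g and Fcgr2b, which were also higher in A+Tw/STD, or of Fcgrt. The Fcgr2b window lies inside that gene and overlaps 187 exon bases. The windows of the family genes Fcgr4 and Fcrls each held 1 match. These are letter matches only, and binding was not measured.

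**Figure D1:**
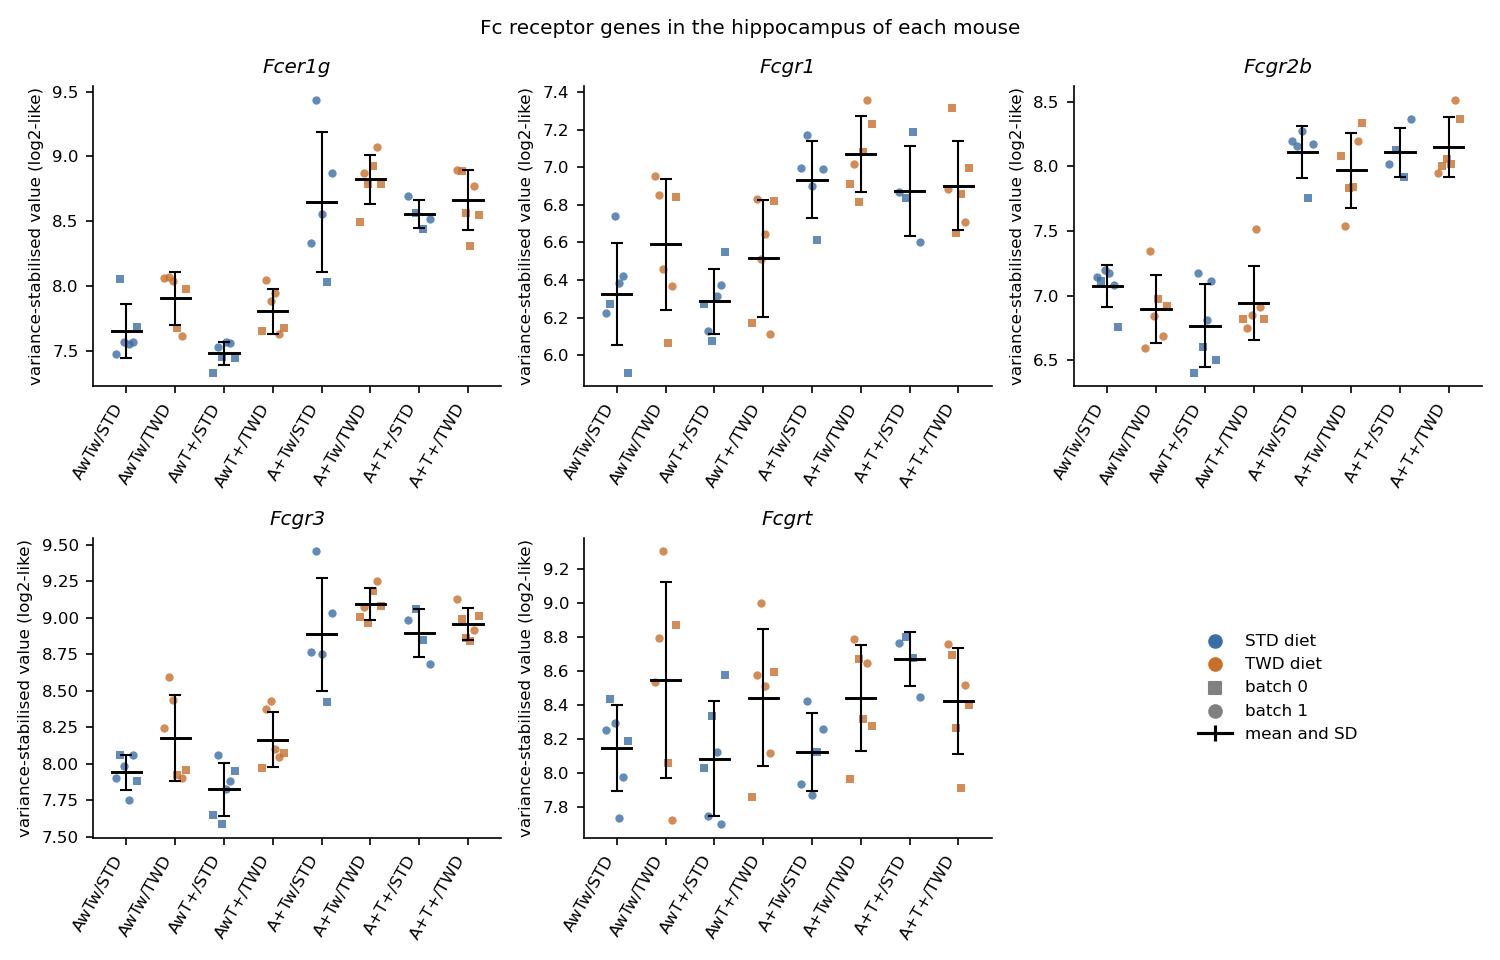
Variance-stabilised value (log2-like) of each Fc receptor gene in every mouse, by genotype and diet, with the mean and SD of each group as black bars. Fcer1g, Fcgr1, Fcgr2b and Fcgr3 had higher group means in all A+ groups than in all Aw groups, and Fcgrt did not follow the A+ genotype.

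Several facts of the whole series bear on these values. The deposited values are counts on a variance-stabilised, log2-like scale with batch removed, so the read depth of a mouse is unknown and low genes are compressed. The App gene, which the A+ transgene adds to, was higher in all 4 A+ comparisons with AwTw (log2 differences from 0.79 to 1.00), whereas the group means of Mapt lay between 12.86 and 13.02 and did not mark the T+ mice. Reads were assigned to mouse transcripts, while the T+ transgene is human. With reads aligned to human transcripts, the paper reported higher MAPT in AwT+ and A+T+ mice. All 8 hippocampal neuron markers and all 15 microglial markers listed were measured. Of the monocyte and neutrophil markers 0 of 10, of the NK cell markers 0 of 7 and of the mast cell markers 1 of 8 were measured. Choroid plexus markers varied strongly between mice, with Ttr, the transthyretin of this epithelium, from 7.49 to 18.08.

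Fcer1g, the signalling chain, was nearly doubled in the A+ genotypes on both diets. In AwTw/STD mice its values ran from 7.47 to 8.05 with a median of 7.57. The 5 A+Tw/STD mice had 8.33, 9.44, 8.55, 8.03 and 8.88, and the 4 A+T+/STD mice had 8.70, 8.56, 8.44 and 8.52. One A+Tw/STD mouse, replicate 4, thus lay just below the highest AwTw/STD mouse, and all others lay above it. On TWD the AwTw mice ran from 7.61 to 8.07 (median 8.00), the A+Tw mice from 8.50 to 9.07 (median 8.83) and the A+T+ mice from 8.31 to 8.90 (median 8.67), with no overlap.

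Relative to AwTw of the same diet, the log2 difference of Fcer1g was 0.98 ± 0.145 (SE) in A+Tw/STD (1.97-fold, adjusted p = 1.82e-05, limma) and 0.93 ± 0.154 in A+T+/STD. It was 0.97 ± 0.140 in A+Tw/TWD and 0.81 ± 0.140 in A+T+/TWD, and all 4 passed the threshold of 0.05 on the p adjusted over all genes. Folds here are taken from the variance-stabilised scale, which understates them for low genes. The single A+Tw/STD mouse of batch 0 was replicate 4, and within batch 0 the A+Tw/STD difference was 0.16 ± 0.233 against 1.26 ± 0.172 within batch 1. In the other 3 comparisons the within-batch differences lay between 0.64 and 1.07. The call was lost in A+Tw/STD in batch 0 alone and with only the groups compared in the fit (0.99 ± 0.226, adjusted p = 0.133, limma), in A+T+/STD in batch 0 alone, in A+Tw/TWD in batch 1 alone and in A+T+/TWD in each batch alone.

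Fcgr3, the low-affinity activating IgG receptor, rose to a similar extent. The AwTw/STD mice ran from 7.76 to 8.06 (median 7.95), the A+Tw/STD mice had 8.77, 9.46, 8.75, 8.42 and 9.04, and the A+T+/STD mice had 8.98, 9.06, 8.85 and 8.69. On TWD the AwTw mice ran from 7.90 to 8.59 (median 8.10), the A+Tw mice from 8.97 to 9.25 (median 9.08) and the A+T+ mice from 8.84 to 9.13 (median 8.95). The A+ groups did not overlap with AwTw on either diet. The log2 difference was 0.92 ± 0.122 in A+Tw/STD (adjusted p = 1.98e-06, limma), 0.98 ± 0.130 in A+T+/STD, 0.97 ± 0.118 in A+Tw/TWD and 0.84 ± 0.118 in A+T+/TWD, all past the threshold. Within batch 0 the A+Tw/STD difference was 0.45 ± 0.181, from the same single A+Tw/STD mouse, and within batch 1 it was 1.08 ± 0.162, and the other 3 comparisons gave 0.73 to 1.12. The call was lost in A+Tw/STD in batch 0 alone and in the other 3 comparisons in batch 1 alone.

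Fcgr2b, the inhibitory receptor, rose in the same comparisons. AwTw/STD mice ran from 6.76 to 7.20 (median 7.13), A+Tw/STD mice had 8.20, 8.16, 8.28, 7.76 and 8.17, and A+T+/STD mice had 8.02, 8.13, 7.92 and 8.37. On TWD the ranges were 6.59 to 7.34 (median 6.88) in AwTw, 7.54 to 8.34 (median 7.96) in A+Tw and 7.95 to 8.52 (median 8.04) in A+T+. No A+ mouse overlapped with AwTw of its diet. The log2 difference was 1.01 ± 0.147 in A+Tw/STD (adjusted p = 1.38e-05, limma), 1.06 ± 0.157 in A+T+/STD, 1.13 ± 0.142 in A+Tw/TWD and 1.31 ± 0.142 in A+T+/TWD, which was 2.49-fold, and all passed the threshold. Within batches these differences lay between 0.82 and 1.37, and the call was lost in A+Tw/STD in batch 0 alone and in A+T+/STD and A+Tw/TWD in batch 1 alone.

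Fcgr1, the high-affinity IgG receptor, showed smaller differences and more overlap. AwTw/STD mice ran from 5.91 to 6.74 (median 6.33), A+Tw/STD mice had 7.00, 7.17, 6.90, 6.61 and 6.99, and A+T+/STD mice had 6.87, 6.84, 7.19 and 6.60. On TWD the AwTw mice ran from 6.06 to 6.95 (median 6.65), the A+Tw mice from 6.82 to 7.36 (median 7.05) and the A+T+ mice from 6.65 to 7.31 (median 6.87). Only the A+Tw/STD difference passed the threshold (0.60 ± 0.157, 1.51-fold, adjusted p = 0.049, limma), and this call was lost when any 1 of 9 of the 11 mice was left out and under 6 of 8 other alternatives. In A+T+/STD it was 0.56 ± 0.167 (adjusted p = 0.0911, limma) and did not pass. On TWD the differences of 0.51 ± 0.151 for A+Tw and 0.34 ± 0.151 for A+T+ did not pass either (adjusted p = 0.167 and 0.585, limma). Within batches the 4 differences of Fcgr1 ranged from 0.14 to 0.92.

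Fcgrt, the endosomal IgG recycling receptor, did not rise past the threshold in any A+ comparison. AwTw/STD mice ran from 7.73 to 8.43 (median 8.22), A+Tw/STD mice had 7.93, 8.42, 7.87, 8.12 and 8.26, and A+T+/STD mice had 8.76, 8.80, 8.68 and 8.45. The log2 difference from AwTw was -0.03 ± 0.211 in A+Tw/STD, and on TWD it was -0.09 ± 0.204 for A+Tw and -0.11 ± 0.204 for A+T+. In A+T+/STD it was 0.53 ± 0.225, and although the 4 mice lay above every AwTw/STD mouse, the adjusted p was 0.274 (limma). The 4 A+T+/STD mice also lay above all A+Tw/STD mice (difference 0.56 ± 0.235, adjusted p = 0.999, limma), and they had high choroid plexus markers, with a mean over the 10 markers of 9.26 to 10.12 against 6.29 to 9.73 in A+Tw/STD and 6.30 to 9.70 in AwTw/STD. The A+T+/STD difference from AwTw ranged from 0.24 to 0.56 under the 9 alternatives and passed in none. These alternatives include the choroid plexus marker mean as covariate. How much of the Fcgrt values comes from choroid plexus tissue was not tested.

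Counted over the 5 genes, 4 were higher than AwTw in A+Tw/STD and 3 in each of the other 3 A+ groups, and none was lower. Among all genes tested, 0.918% were higher and 0.00629% lower in A+Tw/STD and 1.22% and 0.101% in A+T+/STD. On TWD these shares were 0.818% and 0.00629% for A+Tw and 0.692% and 0.0377% for A+T+. In the order used from here on, A+Tw and A+T+ on STD followed by both on TWD, the median log2 difference of the 5 genes was 0.92, 0.93, 0.97 and 0.81, and over all genes it was between -0.015 and -0.005. In this order, values lay wholly above AwTw for 2, 4, 3 and 3 of the 5 genes, against 1.14%, 2.82%, 0.61% and 0.528% of all genes. At an unadjusted p below 0.05 there were 899, 2278, 827 and 1234 of the 15897 genes in these comparisons. The 2 comparisons on a diet share their AwTw mice. In bulk tissue, more cells that express these genes and more RNA per cell cannot be told apart.

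**Figure D2:**
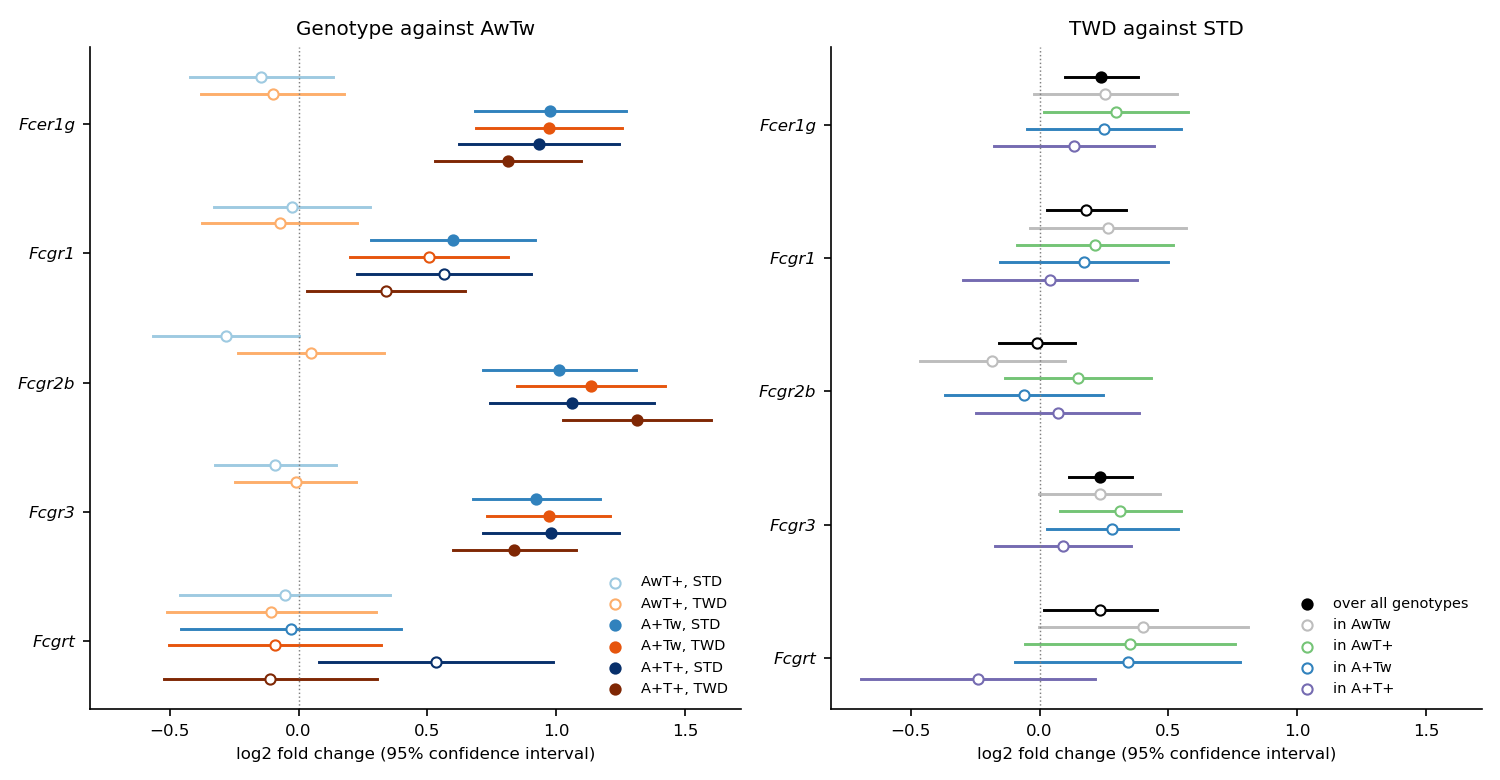
Log2 fold change with its 95% confidence interval for each Fc receptor gene, for the transgenic genotypes against AwTw (left) and for TWD against STD (right), with filled points past an adjusted p of 0.05. Fcer1g, Fcgr2b and Fcgr3 lie between 0.81 and 1.31 in the 4 A+ comparisons, and the diet differences over all genotypes lie between -0.01 and 0.24.

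The Tau transgene alone gave no call. In AwT+ against AwTw, 0 of 5 genes passed on either diet with limma, 0 of 5 had an unadjusted p below 0.05, and the share called among all genes was 0% (380 genes on STD and 484 on TWD at an unadjusted p below 0.05). The largest difference was that of Fcgr2b on STD (-0.28 ± 0.140, unadjusted p = 0.0518, adjusted p = 0.999). Its 95% confidence interval ran from -0.56 to 0.00, while on TWD it ran from -0.23 to 0.33. For Fcer1g the interval ran from -0.42 to 0.14 on STD and from -0.38 to 0.18 on TWD.

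Adding the Tau transgene to APPswe/PS1dE9 also gave no call among the 5. In A+T+ against A+Tw, 0 of 5 passed with limma on either diet, against 0.00629% of all genes on STD and 0% on TWD (at an unadjusted p below 0.05 there were 1 of the 5, Fcgrt, and 617 of all genes on STD, and 0 of the 5 and 208 of all genes on TWD). The differences of Fcer1g, Fcgr1, Fcgr2b and Fcgr3 lay between -0.17 and 0.18. Values of 1 gene, Fcgrt, did not overlap on STD, against 1.56% of all genes. The intervals of Fcgr3 were -0.22 to 0.33 on STD and -0.37 to 0.10 on TWD.

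The Western diet gave smaller differences than the A+ genotypes for Fcer1g and Fcgr3, and these passed the threshold when all genotypes were fitted together. Fcer1g was higher by 0.24 ± 0.0698 (1.18-fold, adjusted p = 0.0172) and Fcgr3 by 0.24 ± 0.0598 (adjusted p = 0.0157, limma) on TWD. With the first residual component as a covariate both calls were lost, at 0.12 ± 0.0621 and 0.13 ± 0.0528 (adjusted p = 0.607 and 0.558, limma). The other 3 genes did not pass: Fcgr1 differed by 0.18 ± 0.0761 (adjusted p = 0.0632), Fcgrt by 0.24 ± 0.108 (adjusted p = 0.0869) and Fcgr2b by -0.01 ± 0.0731 (adjusted p = 0.941). These 2 of 5 genes stand beside 16% of all genes that were higher and 13.4% that were lower on TWD. Within batch 0 the differences of Fcer1g and Fcgr3 were 0.22 ± 0.103 and 0.18 ± 0.0873 (adjusted p = 0.82 for both, limma), and within batch 1 they were 0.30 ± 0.0943 and 0.28 ± 0.0887 (adjusted p = 0.0203 and 0.0216). Fcgrt differed between batches, at -0.08 ± 0.147 in batch 0 and 0.51 ± 0.141 in batch 1.

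Within a genotype the diet difference of Fcer1g was 0.25 ± 0.138 in AwTw and 0.30 ± 0.138 in AwT+, and in the A+ mice it was 0.25 ± 0.149 without and 0.13 ± 0.154 with the Tau transgene. That of Fcgr3 was 0.23 ± 0.116, 0.31 ± 0.117, 0.28 ± 0.125 and 0.09 ± 0.130 in the same order. Of the 5 genes 0 passed with limma in each genotype, against 9.35% of all genes in AwTw and 0% in the 3 transgenic genotypes, where 1183, 705 and 409 genes of all had an unadjusted p below 0.05. At an unadjusted p below 0.05 there were 2 of the 5 in AwT+ (Fcer1g and Fcgr3), 1 in A+Tw (Fcgr3), and 0 in AwTw and A+T+, and in AwTw 6391 of all genes reached it. Values of Fcer1g did not overlap between the diets in AwT+ (STD 7.33 to 7.57, TWD 7.63 to 8.04), as was found for 0.786% of all genes. In AwTw, Fcer1g passed when AwTw/STD replicate 2 was left out, and Fcgr3 and Fcgrt when AwTw/TWD replicate 5 was left out. Over all genotypes, leaving out AwTw/TWD replicate 5 raised the count from 2 to 4.

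The difference between diets in the A+ effect was tested directly. For A+Tw it was -0.01 ± 0.202 for Fcer1g, 0.05 ± 0.171 for Fcgr3, 0.12 ± 0.206 for Fcgr2b, -0.09 ± 0.219 for Fcgr1 and -0.06 ± 0.295 for Fcgrt. For A+T+ it was -0.12 ± 0.207, -0.14 ± 0.174, 0.25 ± 0.210, -0.22 ± 0.224 and -0.64 ± 0.301 in the same order of genes. With limma 0 of 5 genes passed in either test, against 0% of all genes. Of the 5, Fcgrt alone reached an unadjusted p below 0.05, in A+T+ (adjusted p = 0.559, limma). Over all genes, 352 for A+Tw and 1001 for A+T+ had an unadjusted p below 0.05. The 95% intervals for Fcgr3 ran from -0.30 to 0.39 and from -0.50 to 0.21.

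In the order of the 8 group means, 4 of the genes had every A+ group above every Aw group. For Fcer1g, Fcgr1 and Fcgr3 it began with AwT+ and then AwTw on STD, next came AwT+ and AwTw on TWD, and the A+ groups followed, with A+Tw/TWD highest. For Fcgr2b the lowest was AwT+/STD (6.77 ± 0.321, SD) and the highest A+T+/TWD (8.15 ± 0.231). The step from the highest Aw group to the lowest A+ group was 0.65 for Fcer1g, 0.89 for Fcgr2b and 0.71 for Fcgr3, each larger than the SD of both groups, whereas for Fcgr1 it was 0.28 and smaller than the larger SD of 0.348. The other neighbours differed by less than their larger SD, except in Fcgr3 the steps from AwTw/STD to AwT+/TWD (0.22) and from A+T+/TWD to A+Tw/TWD (0.13). Fcgrt ran from 8.09 ± 0.337 in AwT+/STD to 8.67 ± 0.159 in A+T+/STD, with no step above the larger SD.

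The activating and inhibitory receptors were also compared within each mouse. Fcgr3 minus Fcgr2b averaged 0.88 ± 0.272 (SD, n = 21) on STD and 1.11 ± 0.342 (n = 24) on TWD. These are differences of variance-stabilised values that are not per length, so only their shift between mice can be read. In AwTw it was 0.87 ± 0.192 on STD and 1.28 ± 0.290 on TWD, and in AwT+ 1.06 ± 0.247 and 1.22 ± 0.374. A+Tw mice had 0.77 ± 0.325 and 1.12 ± 0.284, and A+T+ mice 0.79 ± 0.310 and 0.81 ± 0.269. The ranges of the diets overlapped, from 0.32 to 1.45 on STD and from 0.40 to 1.65 on TWD, and no test was made.

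**Figure D3:**
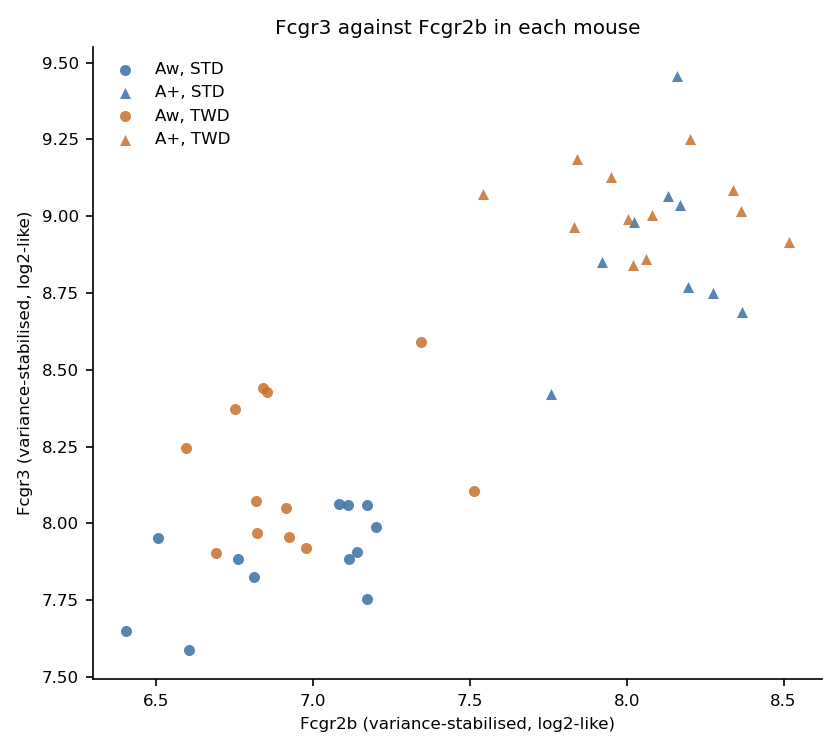
Fcgr3 against Fcgr2b in each of the 45 mice (variance-stabilised values), with circles for Aw, triangles for A+ and colours for the diet. A+ and Aw mice did not overlap in Fcgr2b (Aw at most 7.51, A+ at least 7.54). In Fcgr3 the lowest A+ mouse (8.42) lay below the highest Aw mouse (8.59). Among Aw mice those on TWD tend to lie higher in Fcgr3 at a given Fcgr2b.

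Genes of the pathway around the receptors had smaller median differences than the receptors. Of the 18 ITAM signalling genes measured among 19 listed, 2, 5, 2 and 0 were higher than in AwTw and none was lower, with medians of 0.31, 0.32, 0.28 and 0.28. In A+T+/TWD, 9 of the 18 and 1234 of all 15897 genes had an unadjusted p below 0.05 (limma). Lat2, a membrane adaptor of myeloid and B cells, was higher by 0.83 ± 0.165 and Vav1, an exchange factor for Rac, by 0.60 ± 0.148 in A+Tw/STD. In A+T+/STD the adaptors Blnk (0.51 ± 0.118) and Pik3ap1 (0.81 ± 0.163) were among those higher, with Lat2 and Vav1. Syk, the kinase that docks on the gamma chain, did not pass in the 4 comparisons (0.18 to 0.42) but was higher on TWD over all genotypes by 0.18 ± 0.0643 (adjusted p = 0.0308, limma), as was Rac2 (0.36 ± 0.132).

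On the inhibitory side, 7 of 8 listed genes were measured, and 1, 1, 2 and 0 of them were higher, with medians of 0.15, 0.31, 0.15 and 0.17, and 3 of the 7 had an unadjusted p below 0.05 in A+T+/TWD (limma), again beside 1234 of all genes. Ptpn6, a tyrosine phosphatase that acts on ITIM receptors, rose by 0.87 ± 0.212 in A+Tw/STD, 1.04 ± 0.226 in A+T+/STD and 0.81 ± 0.205 in A+Tw/TWD. Inpp5d, the lipid phosphatase recruited by the inhibitory Fc receptor, passed in A+Tw/TWD (0.65 ± 0.165, adjusted p = 0.0395, limma). On TWD over all genotypes the adaptors Dok1 (0.28 ± 0.0771) and Dok3 (0.31 ± 0.0815) were higher.

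The phagocyte NADPH oxidase, which makes superoxide after receptor engagement, had 1, 3, 2 and 2 of its 5 subunit genes higher in that order, with medians of 0.45, 0.63, 0.69 and 0.59. Ncf1, a cytosolic subunit, was higher in 3 of them, from 0.63 to 0.73. Cyba, a membrane subunit, rose in A+T+/STD (1.04 ± 0.268) and on TWD over all genotypes (0.44 ± 0.122).

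Of 14 other Fc receptor family genes 2 were measured. Fcrls, an Fc receptor-like gene typical of mouse microglia, was higher in all 4 comparisons, by 1.09 ± 0.136, 1.04 ± 0.145, 0.85 ± 0.132 and 0.76 ± 0.132. Trim21, a cytosolic antibody receptor, did not pass in any (0.13 to 0.42). Oscar, the measured 1 of 6 other receptors that use the gamma chain, was higher in A+Tw/TWD (0.54 ± 0.138, adjusted p = 0.0389, limma) and did not pass in the other 3. B2m, the light chain of the neonatal Fc receptor, was higher in A+Tw/TWD (0.80 ± 0.192, adjusted p = 0.0229, limma) and differed by 0.50 ± 0.198, 0.32 ± 0.212 and 0.60 ± 0.192 in the other 3 without passing.

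The immunoglobulin and B lineage genes showed no call, and these RNA values do not measure antibody protein. Of 13 immunoglobulin and B lineage genes 6 were measured, and 0 of them passed with limma in the 4 A+ comparisons or for the diet (2, 0, 1 and 0, and 2 for the diet, at an unadjusted p below 0.05, beside 899, 2278, 827 and 1234, and 7013 for the diet, of all 15897 genes). Ighm, the IgM heavy chain, differed by 0.95 ± 0.406 between A+Tw and AwTw on STD and by 0.94 ± 0.393 on TWD. For Ighg1, an IgG heavy chain, these differences were 1.11 ± 0.537 and 0.77 ± 0.520. Igkc, the kappa light chain, differed by 0.95 ± 0.482 between the diets over all genotypes (adjusted p = 0.121).

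**Figure D4:**
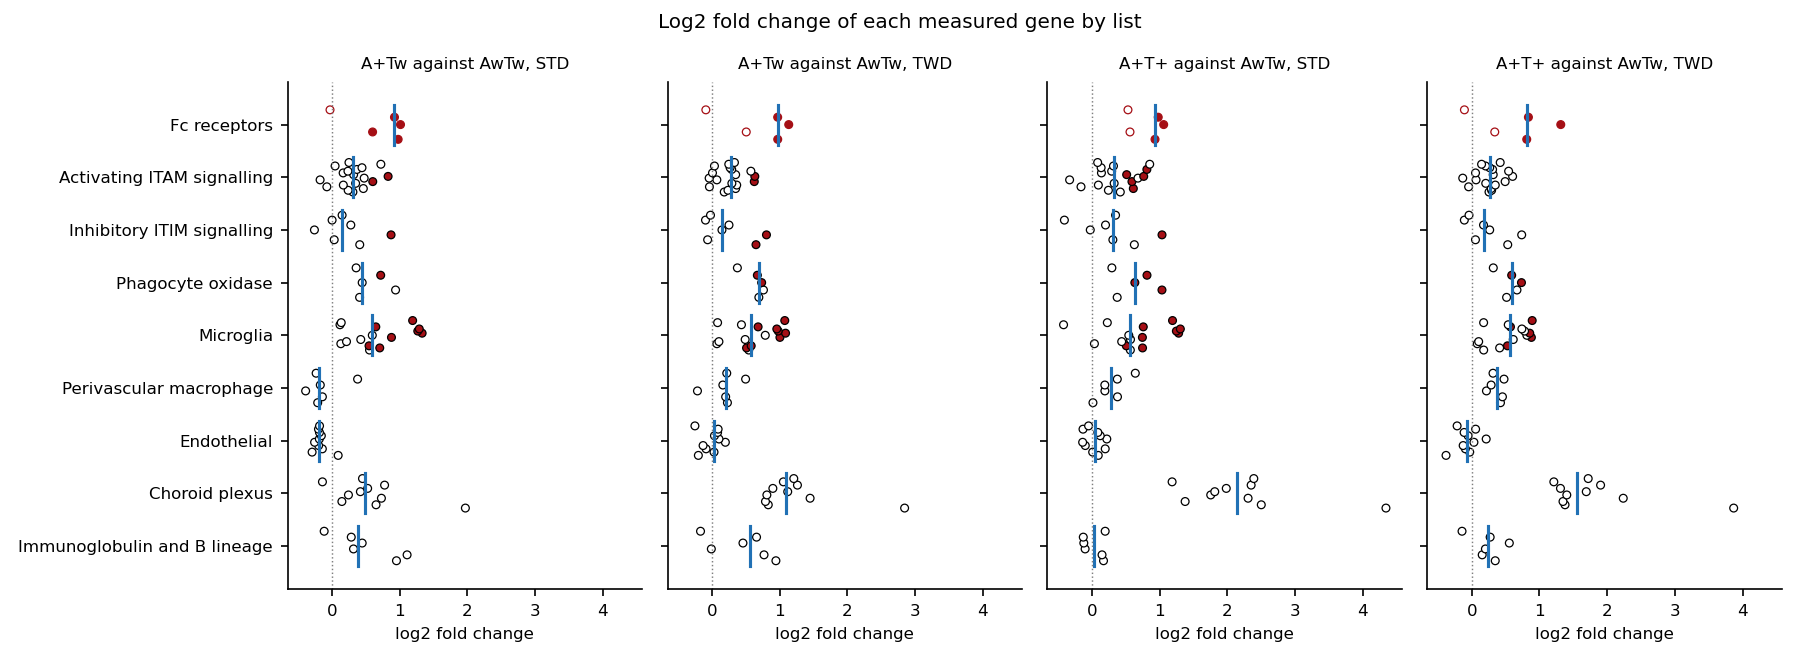
Log2 fold change of each measured gene in the lists (rows) for the 4 comparisons of A+Tw and A+T+ with AwTw, with filled points past an adjusted p of 0.05 and a blue line at the median of each list. The Fc receptor and microglial lists hold most of the filled points, and the choroid plexus list has medians of 0.49 to 2.15 with none filled.

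Markers of the cells that could carry the receptors were read beside them. Of 15 microglial markers 8, 8, 8 and 5 were higher, with medians of 0.60, 0.57, 0.58 and 0.57. Among them were Ctss, a lysosomal protease (1.19 ± 0.109 in A+Tw/STD), the complement gene C1qa (1.33 ± 0.208) and Csf1r, the receptor for colony-stimulating factor (0.70 ± 0.122). The resting-state markers P2ry12 (0.13 ± 0.287) and Tmem119 (0.21 ± 0.168) did not pass in that comparison. The mean of the 15 markers lay between 8.65 and 8.82 as group means in Aw mice and between 9.33 and 9.42 in A+ mice. Over all genotypes on TWD, 6 of the 15 microglial markers were higher and 2, P2ry12 and Sall1, lower. Among all genes 16% were higher and 13.4% lower in that comparison. The part of microglial number in the receptor values was not tested.

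Of the 8 perivascular macrophage markers 6 were measured and 0 passed with limma in the A+ comparisons, with medians of -0.19, 0.28, 0.21 and 0.37 (1, 1, 0 and 1 at an unadjusted p below 0.05). Of the 10 endothelial markers 0 passed with limma (medians of -0.19, 0.05, 0.03 and -0.07), and of the 10 choroid plexus markers 0 passed (medians of 0.49, 2.15, 1.09 and 1.55). At an unadjusted p below 0.05 there were 0 endothelial markers, and 0, 7, 0 and 6 choroid plexus markers, while the same counts over all genes were 899, 2278, 827 and 1234. Of the defining perivascular markers, Cd163 differed by -0.14 ± 0.191, 0.38 ± 0.204, 0.20 ± 0.185 and 0.45 ± 0.185 in the 4 comparisons, and Mrc1 by -0.21 ± 0.257, 0.02 ± 0.274, 0.23 ± 0.248 and 0.42 ± 0.248. Kit was the only mast cell marker measured, and other brain cells also express it. It differed by -0.01 ± 0.113, -0.03 ± 0.121, -0.17 ± 0.109 and -0.14 ± 0.109 in the 4 comparisons and passed in none. With the mean of the choroid plexus markers as a covariate, a setting chosen after the data were seen, Fcer1g, Fcgr2b and Fcgr3 passed in the same 4 comparisons, and Fcgrt passed for the diet (0.30 ± 0.0962, adjusted p = 0.0186, limma).

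Over the 45 mice, which share batches and groups, the mean of the microglial markers correlated with Fcgr3 (r = 0.933), Fcgr2b (r = 0.928), Fcer1g (r = 0.914) and Fcgr1 (r = 0.769), and less with Fcgrt (r = 0.159). These values include the difference between A+ and Aw mice, whose microglial marker means did not overlap. After removal of the group and batch means, r fell to 0.432, 0.445, 0.345, 0.274 and -0.029. Fcgrt correlated in the residuals with the perivascular macrophage markers (r = 0.558), the choroid plexus markers (r = 0.522) and the endothelial markers (r = 0.388). All are descriptions over n = 45 mice.

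**Figure D5:**
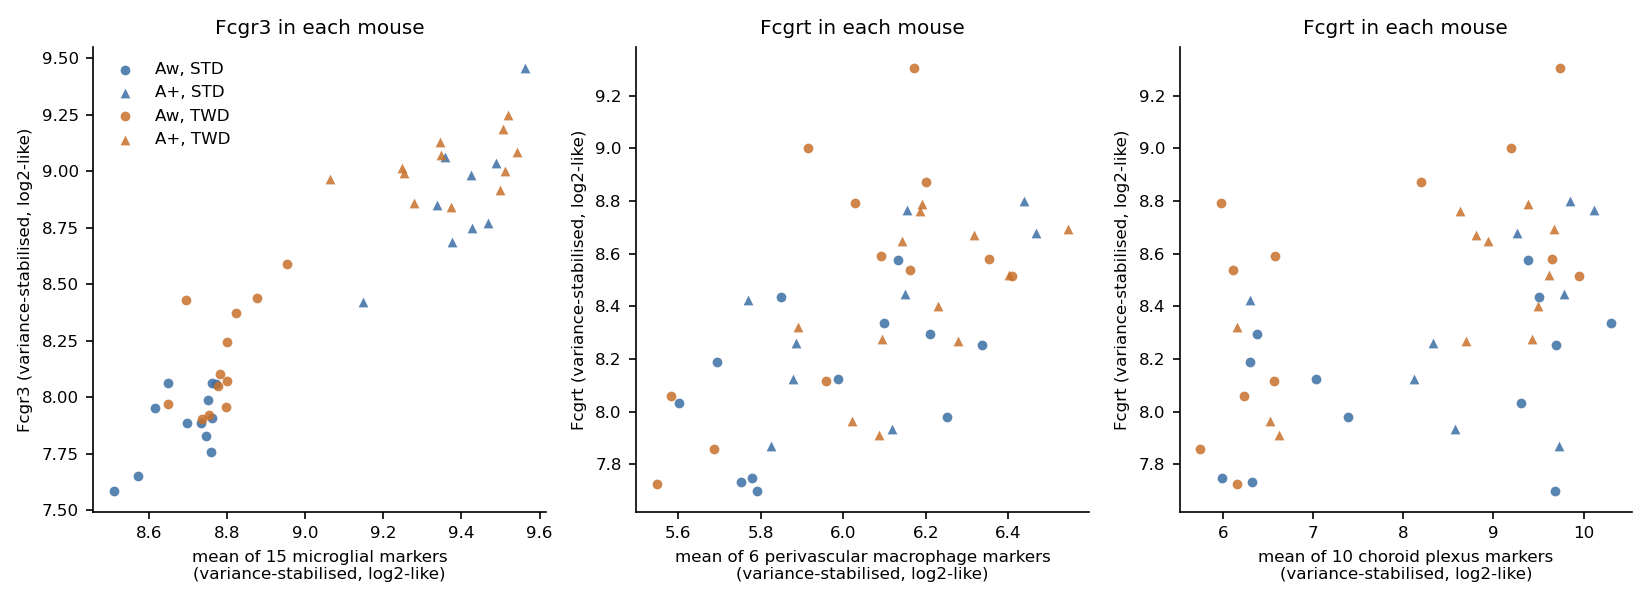
Fcgr3 against the mean of 15 microglial markers, and Fcgrt against the mean of 6 perivascular macrophage and 10 choroid plexus markers, in each of the 45 mice (variance-stabilised values). The microglial marker mean did not overlap between the genotypes (Aw at most 8.95, A+ at least 9.06). Fcgr3 was mostly higher in A+ mice, but the lowest A+ mouse (8.42) lay below the highest Aw mouse (8.59). The Fcgrt values of A+ and Aw mice overlap widely, with the highest in TWD mice.

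Among each other, Fcer1g, Fcgr1, Fcgr2b and Fcgr3 had r from 0.673 to 0.962 over the 45 mice. In the residuals Fcer1g and Fcgr3 stayed together (r = 0.733), Fcgr1 followed Fcgr3 at 0.450 and Fcer1g at 0.384, and Fcgr2b stood apart, with r between -0.196 and 0.107 to the other 4. Fcgrt followed Fcer1g at 0.548 and Fcgr3 at 0.521.

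The genes most like each member over the 45 mice differed by receptor. For Fcgr3 and Fcer1g the nearest gene was Tyrobp (r = 0.977 and 0.970), the other ITAM adaptor of microglia, and both also had Cd68 and C1qa among their nearest 5. For Fcgr2b they included Ly86 (r = 0.934), Cst7, Clec7a and Itgax, of which the last 3 are known as genes of plaque-associated microglia. For Fcgr1 they were Slamf9 (r = 0.821), Fcgr3, Fcer1g, Lyz2 and Cd52. For Fcgrt they were Apod (r = 0.906), Isyna1, Lgals1, Vtn and Tinagl1, none of which is among the microglial markers.

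In the residuals the nearest genes changed for 4 of the members. Fcer1g was then nearest to Mrpl46 (r = 0.860), a mitochondrial ribosomal protein gene, and Fcgr3 to Psma7 (r = 0.833), a proteasome subunit. Fcgr2b was nearest to Lcp1 (r = 0.650), an actin-bundling protein of leukocytes, and Fcgr1 to Rwdd2a (r = 0.561). Fcgrt kept Lgals1 (r = 0.917), Isyna1 and Apod among its nearest 5 and added Gsn and Tmem176b.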

How the data were processed

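Hippocampal RNA of 45 mice was sequenced as stranded poly(A) libraries with single reads of 50 bp. Per the labels and the study's methods, the authors checked reads with FastQC 0.11.8, trimmed them with Trimmomatic 0.38, filtered out rRNA and mitochondrial sequences with Bowtie2 2.2.3 and quantified transcripts with kallisto 0.44.0, and the transcriptome release is not given in the sources used here. The authors summed to genes, dropped low genes, applied the variance-stabilizing transformation of DESeq2 1.22.2 and removed batch with limma 3.38.3. The deposited values are therefore log2-like, with no counts and no known depth, and precision rests on the spread between mice. In the deposited table both batch means are equal for every gene within a tolerance of 1e-06.

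Genes were tested here in R 4.3.3 with limma 3.58.1 (mean trend, batch as covariate) in one fit of the 8 groups, and the diet over all genotypes in a fit that adds diet, genotype and batch. P-values are two-sided and Benjamini-Hochberg adjusted over 15897 genes, with a threshold of 0.05. Symbols were found for 15695 genes in GENCODE M21. Promoter sequences come from RefSeq, and plots were drawn with matplotlib 3.10.9 in Python 3.11.15. The members and gene lists were chosen with earlier results of these data known. The genes named are the 5 members, list genes past the threshold in an A+ comparison (at most 6 per list), measured Fc receptor family genes and the 5 genes most like each member, and further list genes were named after their values were seen. Genes of these lists that are not reported here by name stay in the counts. The script was tested on simulated data. Alternatives were each batch alone, no batch covariate, quantile normalization, a filter on the mean, no mean trend, only the groups compared, the first residual component or the choroid plexus marker mean as covariate, and each mouse left out.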

Additional observations from a re-analysis of the deposited data

Results flagged for a closer look

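Of 40 gene-by-group sets of 4 to 6 mice, 4 had 1 mouse far from the others by Dixon's criterion, and chance gives about 1 in 20. Fcer1g in AwTw/STD replicate 2 was 8.05, with the nearest mouse at 7.68. Fcgr2b in AwTw/STD replicate 6 was 6.76, with the nearest at 7.08. Fcgr2b in AwT+/TWD replicate 4 was 7.51, with the nearest at 6.91. Fcgr2b in A+Tw/STD replicate 4, the only mouse of that group in batch 0, was 7.76, with the nearest at 8.16.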

How the results depend on the processing

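Of 1780 differences of single genes recomputed under the alternatives, 1731 kept their direction and side of the threshold or were uncalled on both sides, 32 lost the call, 17 gained it and 0 called differences reversed. The number of Fc receptor genes past the threshold in A+Tw/STD fell from 4 to 0 in batch 0 alone, where the group is 1 mouse whose spread is assumed to be that of the others, and to 2 with only the groups compared. In batch 1 alone it fell from 3 to 1 in A+T+/STD, to 0 in A+Tw/TWD and to 1 in A+T+/TWD, with fewer mice in the fit and differences of 0.73 to 1.37 for Fcer1g, Fcgr2b and Fcgr3. For the diet over all genotypes it fell from 2 to 0 in batch 0 alone and to 0 with the first residual component as covariate, where Fcer1g differed by 0.12 ± 0.0621 and Fcgr3 by 0.13 ± 0.0528 (the cause was not tested), and it ranged from 2 to 4 with 1 mouse left out, reaching 4 without AwTw/TWD replicate 5. For the diet in AwTw it ranged from 0 to 2 with 1 mouse left out, with 1 gene without AwTw/STD replicate 2 and 2 without AwTw/TWD replicate 5. The Fcgr1 call in A+Tw/STD was lost under 6 of 8 alternatives: each batch alone, quantile normalization (adjusted p = 0.0668, limma), only the groups compared, and the first residual component or the choroid plexus marker mean as covariate (adjusted p = 0.0641 for the latter), and Fcgr1 lies below the mean filter, so that setting gives no value for it. Quantile normalization moved the median of all genes by less than 0.05 in every comparison, and Fcgr1 then passed for the diet (0.23 ± 0.0782, adjusted p = 0.0265). The missing read depth limits what can be said of the low gene Fcgr1. No paired analysis was possible because replicate numbers follow the order of deposit and pair no mice.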
